A study of Mus musculus with 4 samples.

Results

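The 7 S100 genes described here are S100a4, S100a6, S100a8, S100a9, S100a10, S100a11 and S100a13. They were taken by gene symbol from the 31253 features of a droplet single-cell RNA-seq study of immune cells in subcutaneous MC38 tumours, MC38 being a mouse colon carcinoma line. The tumours grew in Ufl1 cKO mice (2 libraries) and in WT mice (2 libraries). All mice were 8 weeks old when they received 100000 MC38 cells under the skin, none was treated, and the tumours were taken on day 16. UFL1 is the ligase that attaches the ubiquitin-like protein UFM1 to other proteins, and the study's title speaks of ablation in T cells. No Cre driver and no deleted exons are named in the labels. Nor do the labels tie a library to a mouse of its own, so p-values here measure only the spread between libraries, which may be technical. CD45+ cells were sorted, and the labels describe collagenase digestion, freezing and thawing of the suspension before capture with a 10x Genomics v3.1 kit. The questions were in which tumour-infiltrating cell types each S100 gene was high or low, and whether its level differed between cKO and WT.

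S100 proteins are small calcium-binding proteins with EF-hand motifs that mostly work as dimers inside the cell, and some of them are also released and signal through receptors such as TLR4 and RAGE. S100A8 and S100A9 pair to form calprotectin, a major cytosolic protein of neutrophils and young monocytes that sequesters zinc and manganese and carries arachidonic acid to the NADPH oxidase. S100A4 binds non-muscle myosin and is linked to cell motility, S100A6 (calcyclin) binds the ubiquitin ligase adaptor CACYBP, S100A10 (p11) joins annexin A2 and AHNAK under the plasma membrane, S100A11 pairs with annexin A1, and S100A13 takes part in the unconventional release of FGF1 and interleukin-1α.

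All 7 genes lie on mouse chromosome 3 (GRCm38, GENCODE M21 annotation), in 2 blocks. In the first block, S100a13 is at chr3:90514435-90524581, S100a4 at chr3:90603771-90606045, S100a6 at chr3:90612882-90624181 and S100a8 at chr3:90668978-90670035, all on the plus strand, and S100a9 is at chr3:90692632-90695721 on the minus strand, so that S100a8 and S100a9 point towards each other. S100a11 at chr3:93520488-93526287 and S100a10 at chr3:93555080-93564643, both on the plus strand, form the second block. Promoter sequences, from 250 bases before to 50 bases after the annotated start in RefSeq (GRCm38.p6), were found for 6 of the 7 genes, all but S100a10. Those of S100a8 and S100a9 are shown because these 2 genes had nearly the same pattern over cell types, and that of S100a4 because it had the widest range among the broadly expressed members. They are written 5′ to 3′ on the strand of the gene, with capitals marking matches to the TATA box letters TATAAA and to TTGCNNAA, the core letters of sites bound by C/EBP factors, both searched on both strands.
S100a8, chr3:90668821-90669120, plus strand: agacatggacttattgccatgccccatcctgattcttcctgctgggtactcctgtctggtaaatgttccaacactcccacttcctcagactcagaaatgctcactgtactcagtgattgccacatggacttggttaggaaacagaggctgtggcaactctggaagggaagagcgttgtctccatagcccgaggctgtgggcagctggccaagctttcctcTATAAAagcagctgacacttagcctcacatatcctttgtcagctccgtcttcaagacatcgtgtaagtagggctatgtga
S100a9, chr3:90695672-90695971, minus strand: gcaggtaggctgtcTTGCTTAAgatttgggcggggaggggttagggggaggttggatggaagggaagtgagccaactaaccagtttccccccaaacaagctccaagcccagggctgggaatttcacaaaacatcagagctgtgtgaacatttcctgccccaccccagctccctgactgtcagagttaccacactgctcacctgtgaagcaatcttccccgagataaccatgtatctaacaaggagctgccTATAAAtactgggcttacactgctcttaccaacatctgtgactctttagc
S100a4, chr3:90603520-90603819, plus strand: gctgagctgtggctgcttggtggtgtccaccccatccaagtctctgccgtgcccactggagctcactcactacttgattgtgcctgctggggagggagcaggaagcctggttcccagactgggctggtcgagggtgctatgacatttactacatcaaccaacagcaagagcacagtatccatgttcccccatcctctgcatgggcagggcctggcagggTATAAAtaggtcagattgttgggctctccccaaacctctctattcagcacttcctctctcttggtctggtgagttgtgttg
Counting from 1 at the annotated start, with negative positions before it, the letters TATAAA began at position -30 in S100a8 and at position -31 in S100a4. In S100a9 they began at position 1, and TTGCNNAA began at position -236. Neither motif occurred in the windows of S100a6, S100a11 and S100a13. Among 32851 promoters of the same length, 13.6% held TATAAA and 10.8% held TTGCNNAA.

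The deposited matrices held UMI counts, that is, counts of distinct captured RNA molecules, for 7885 and 8098 barcodes in cKO libraries 1 and 2 and for 7352 and 9466 barcodes in WT libraries 1 and 2, with 64141857 to 79747752 UMIs per library. After filters on genes and mitochondrial UMIs and removal of likely doublets, 30279 cells remained, of which 20810 fell into 15 cell types by UMIs of marker genes that include no S100 gene, and 37 of 46 further marker genes were highest in the type they mark. Ptprc, which codes for CD45, was detected in 80.8% to 87.9% of cells. Summed over the 4 T cell gates, Ufl1 stood at 13.6 and 18.9 CPM (counts per 1000000 UMIs) in the cKO libraries and at 15.1 and 16.8 CPM in the WT libraries, but the deleted exons are not given, so this count is no check of the labels. cKO library 2 stood apart: its Xist was 289.8 CPM, against 0.128 CPM in cKO library 1 and 1.01 and 0.326 CPM in the WT libraries, and its Ddx3y was 0.158 CPM, against 46.8 to 50.9 CPM in the others. Xist was found in 69.4% of its cells and Ddx3y in 0.147%. Whatever sets this library apart is mixed into every comparison of cKO with WT. cKO library 2 and WT library 1 shared 479 cell barcodes, against 85 to 104 for the other pairs, with a median of 760 UMIs in cKO library 2 and 17417 UMIs in WT library 1. Leaving out every shared barcode changed none of the 54 calls between cell types that this alternative gave for the members.

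S100a6, S100a10, S100a11, S100a4 and S100a13 were detected in every one of the 13 cell types with at least 20 cells in each library, and were mostly highest in classical monocytes and cDC2 or, for S100a13, in T and NK cells. UMIs of S100a8 and S100a9 sat mostly in a few cells with very high counts, most of them in a cluster led by neutrophil genes, with a low level of S100a8 in classical monocytes. In the contrasts between cell types below, all 7 genes were higher in classical monocytes than in C1q-positive macrophages. For S100a9 this held in the WT but not the cKO libraries once 21 monocytes with high counts were left out, with all macrophages kept. That split is not read as a difference between cKO and WT, because only the cKO macrophages also included such cells. No member differed between cKO and WT in any cell type at an adjusted p under 0.05. Over the kept cells the members held 441155 UMIs of S100a6, 261257 of S100a11, 198309 of S100a10, 75053 of S100a4, 44309 of S100a13, 13891 of S100a9 and 9881 of S100a8. Of the other S100 genes, S100a1 held 8833 UMIs in 6163 cells, and each of the rest held 64 or fewer. These totals are captured molecules and were not divided by transcript length.

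S100a4 spanned 25.9-fold over the 13 cell types, the widest range of the 5 broadly detected members. Levels here are TMM-normalised CPM: UMIs of a gene summed over the cells of 1 type in 1 library, per 1000000 UMIs of that sum, after edgeR's scaling between sums. In classical monocytes (marked by Ly6c2 and Ccr2) S100a4 stood at 647 and 596 CPM in the cKO libraries and at 666 and 723 CPM in the WT libraries, a mean of 658 ± 52.6 CPM (SD, n = 4 libraries). In cDC2, the conventional dendritic cells that present antigen mainly to CD4 T cells, it stood at 641 and 531 CPM in cKO and at 643 and 601 CPM in WT. All 4 libraries were thus high in both types, and the ranges of the 2 types overlapped. Non-classical monocytes followed with a mean of 418 CPM and migratory DC, which carry antigen to lymph nodes, with 367 CPM. T cells lay between 227 CPM in CD8 T cells and 303 CPM in gamma-delta T cells, and macrophages at 230 CPM. The low end was formed by cDC1, the dendritic cells that cross-present antigen to CD8 T cells, at 73.4 ± 27.2 CPM, NK cells at 46.3 ± 7.81 CPM, B cells at 25.7 ± 24.1 CPM and pDC, the plasmacytoid dendritic cells, at 25.4 ± 16.8 CPM (SD, n = 4 each). Along the order of means, neighbouring types were apart in all libraries at 2 of 12 steps, from cDC2 down to non-classical monocytes and from CD8 T cells down to cDC1.

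S100a6 had the most UMIs of the members and was led by the same pair of types as S100a4. It stood at 3397 and 3421 CPM in cKO classical monocytes, against 3275 and 4242 CPM in WT classical monocytes, and at 3404 and 2989 CPM in cKO cDC2, against 3090 and 3513 CPM in WT cDC2. Every one of these 8 sums exceeded every sum of the other 11 types. Gamma-delta T cells came next at 2061 ± 356 CPM (SD, n = 4), followed by non-classical monocytes at 1622 CPM, CD8 T cells at 1474 CPM, Treg at 1409 CPM and macrophages at 1351 CPM. NK cells averaged 858 CPM, cDC1 750 CPM, pDC 726 CPM and B cells 621 CPM, and the means of the highest and lowest types were 5.77-fold apart. Neighbours were apart in all libraries at 1 of 12 steps, that from cDC2 down to gamma-delta T cells.

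S100a10, the partner of annexin A2, had a mixed order of myeloid and lymphoid types. It stood at 1268 and 1493 CPM in cKO classical monocytes, against 1553 and 1877 CPM in WT classical monocytes. In Treg it stood at 1546 and 1270 CPM in cKO and at 1435 and 1225 CPM in WT, so that the ranges of these 2 types overlapped. On raw CPM without the TMM scaling Treg ranked first, with a mean of 1723 CPM, against 1273 CPM in classical monocytes, and with clusters in place of gates gamma-delta T cells did. Gamma-delta T cells (1152 CPM), conventional CD4 T cells (1032 CPM), cDC2 (953 CPM), NK cells (884 CPM) and CD8 T cells (865 CPM) followed on the TMM scale. All sums of CD8 T cells were above all sums of macrophages, which averaged 503 CPM, and this was the only step of 12 without overlap. The lowest means were those of pDC at 179 ± 12.4 CPM and migratory DC at 155 ± 78.4 CPM (SD, n = 4 each), and the range from top to bottom was 9.96-fold.

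S100a11, the partner of annexin A1, was the one member for which all 3 conventional dendritic cell groups ranked among the first 4 types. cDC2 averaged 2010 ± 335 CPM, classical monocytes 2002 ± 352 CPM, cDC1 1607 ± 302 CPM and migratory DC 1496 ± 71.8 CPM (SD, n = 4 each). Migratory DC stood at 1461 and 1536 CPM in cKO and at 1573 and 1414 CPM in WT, all above the 423 to 1279 CPM of gamma-delta T cells, the next type. From there the means fell within a narrow band, with 800 CPM in non-classical monocytes, 764 CPM in macrophages, 687 CPM in NK cells and 496 CPM in B cells, and no further neighbours were apart. In the 55 cells of the neutrophil gate, described by raw CPM only because each library held 7 to 24 of them, S100a11 stood at 4330 and 6301 CPM in cKO and at 1828 and 6536 CPM in WT.

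S100a13 was the member led by lymphoid types. Conventional CD4 T cells stood at 272 and 266 CPM in cKO and at 280 and 316 CPM in WT, a mean of 283 ± 22.5 CPM (SD, n = 4). Gamma-delta T cells (251 CPM), Treg (220 CPM), NK cells (219 CPM), classical monocytes (219 CPM) and CD8 T cells (218 CPM) followed with overlapping values. All sums of CD8 T cells were above all sums of migratory DC (156 CPM), the only step of 12 without overlap. B cells were lowest at 69.9 ± 19.6 CPM, and the range was 4.05-fold, as it was for S100a11.

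**Figure D1:**
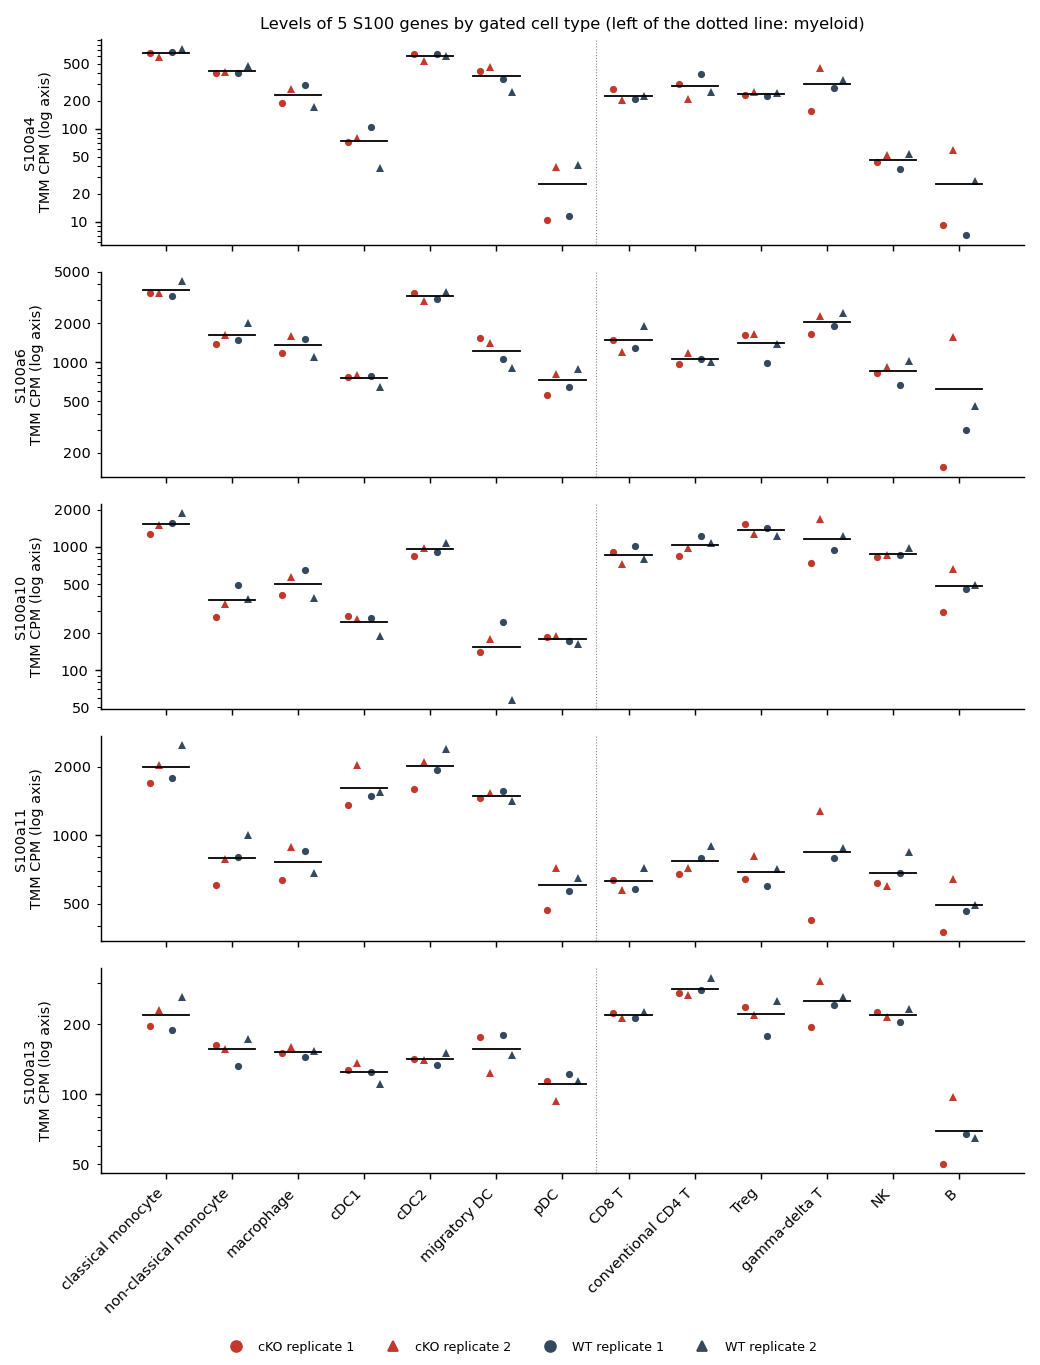
TMM-normalised CPM (log axis) of S100a4, S100a6, S100a10, S100a11 and S100a13 in 13 gated cell types, 1 point per library, cKO left of WT, with a line at the mean of the 4 libraries and the myeloid types left of the dotted line. S100a6 and S100a4 peak in classical monocytes and cDC2, S100a11 is high in all conventional dendritic cell groups, and S100a13 is highest in conventional CD4 T cells.

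The share of cells with at least 1 UMI, counted after thinning cells to 3000 UMIs, followed the levels. Cells with fewer UMIs were left out, among them 38 of 55 neutrophils, 280 of 916 B cells and 1328 of 6778 macrophages, so these shares describe the deeper cells; without thinning S100a6 was found in 23.6% of B cells and 54.5% of macrophages. S100a6 was found in 99.2% of cDC2 and 97.2% of classical monocytes, in 89.3% of gamma-delta T cells, in 53.2% of macrophages and in 25.3% of B cells. S100a4 was found in 72.7% of classical monocytes, 69.5% of cDC2 and 59.8% of non-classical monocytes, but in 24.6% of macrophages and 12.5% of cDC1. The shares of S100a4 in NK cells (7.92%), pDC (4.71%), mast cells and basophils (4.29%) and B cells (4.25%) were the lowest, and how much of these is free RNA from other cells was not tested. S100a10 ran from 90.6% of Treg and 88.9% of gamma-delta T cells to 31.5% of cDC1 and 20.9% of migratory DC, and S100a11 was at 96.5% in cDC2 and 60.5% in macrophages. S100a13 was found in 59.7% of conventional CD4 T cells and in 17.8% of B cells. Nearly every cDC2 and classical monocyte thus had S100a6. Of the 6778 cells of the macrophage gate, 1492 fell into classical monocyte clusters and 5034 into macrophage clusters, and their part in the macrophage shares and levels was not tested.

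The members were compared between cell types with edgeR's quasi-likelihood test on the UMI sums, with library as a block. Benjamini-Hochberg adjustment was over 10149 genes, adjusted p below is that value, and ± gives the SE. Of the 70 tests of a member, 33 passed 0.05. Of all genes, 6.16% to 74.4% passed in either direction, depending on the contrast. The share of all genes that passed is given beside each contrast. In the mean of the myeloid types minus the mean of the lymphoid types, 34.9% of genes passed as higher and 39.5% as lower. S100a11 was higher in the myeloid mean by 0.82 ± 0.06 log2 (adjusted p = 6.07e-17), S100a4 by 0.71 ± 0.12 (adjusted p = 9.62e-07) and S100a6 by 0.39 ± 0.11 (adjusted p = 0.00153; 0.0501 without WT replicate 1). S100a10 was lower in the myeloid mean, with a log2 difference of -1.17 ± 0.08 (adjusted p = 2.04e-17), although classical monocytes had its highest TMM level, and S100a13 was lower with -0.39 ± 0.05 (adjusted p = 1.39e-09). S100a8 and S100a9 did not pass. Among genes related to S100 proteins, all 6 measured transcription factors of the regulator list were higher in the myeloid mean, with Spi1 (4.10 log2) and Cebpa (3.99 log2) foremost, and so were all 5 measured receptors and co-receptors of secreted S100 proteins, led by Cd14 (3.55 log2).

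Classical monocytes and macrophages were apart for the whole family. All 7 members were higher in classical monocytes, where 24.4% of all genes passed as higher. S100a8 showed the greatest difference, 3.20 ± 0.34 log2 (adjusted p = 2.16e-10), followed by S100a9 with 3.05 ± 0.50 (adjusted p = 2.75e-06), S100a10 with 1.62 ± 0.20 (adjusted p = 6.90e-09) and S100a4 with 1.51 ± 0.24 (adjusted p = 1.51e-06). S100a6 differed by 1.38 ± 0.28 log2 (adjusted p = 6.73e-05), S100a11 by 1.36 ± 0.15 (adjusted p = 2.61e-10) and S100a13 by 0.50 ± 0.11 (adjusted p = 0.000166). All 7 annexin and membrane partners passed in this contrast, 6 of them higher in classical monocytes: Ahnak by 1.84 log2, Anxa2, the partner of S100A10, by 1.39, Anxa1, the partner of S100A11, by 1.34, and Anxa6 by 0.89, while Anxa5 was lower with -0.25 log2. A set of 21 monocytes held 20 or more UMIs of S100a8 and S100a9 together. Without them, raw S100a9 in classical monocytes was 0 and 7.75 CPM in cKO and 1.19 and 1.26 CPM in WT. Macrophages, with all cells kept, stood at 1.48 and 8.26 CPM in cKO and at 0.367 and 0.353 CPM in WT. The macrophages of each cKO library still included 1 cell with 20 or more UMIs of the pair. With high cells removed from monocytes only, S100a9 was thus lower in monocytes in both cKO libraries and higher in both WT libraries. This one-sided removal cannot show a difference between cKO and WT, because the WT macrophages held no such cell. With high cells removed from both types, the pair together stood at 5.76 and 42.9 CPM in cKO monocytes and at 9.53 and 33.1 CPM in WT monocytes. In macrophages it then stood at 1.28 and 16.2 CPM in cKO and at 3.40 and 2.71 CPM in WT. The median of the annexin list was 0.89 log2, against 0.01 log2 over all genes tested. The receptors were mixed, with Cd14 (1.18 log2) and Tlr4 (0.49 log2) higher and the scavenger receptor Cd36 (-1.75 log2) and Bsg (-0.78 log2) lower in classical monocytes.

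Non-classical monocytes, the patrolling type marked here by Ace, Treml4 and Adgre4, had less of most members than classical monocytes, in a contrast where 15.2% of all genes passed as lower. S100a8 was lower with -2.80 ± 0.50 log2 (adjusted p = 3.09e-05), S100a10 with -1.96 ± 0.21 (adjusted p = 6.89e-10), S100a11 with -1.21 ± 0.15 (adjusted p = 2.41e-08) and S100a6 with -1.03 ± 0.28 (adjusted p = 0.00412). S100a13 was lower by the smaller difference of -0.36 ± 0.12 log2 (adjusted p = 0.0161), a call that did not hold without cKO replicate 2 (0.0543), WT replicate 1 (0.114) or WT replicate 2 (0.262). S100a4 did not pass, with -0.54 ± 0.24 log2 (adjusted p = 0.0995), nor did S100a9, with -0.02 ± 0.36 log2 (adjusted p = 0.986). Of the 7 annexin and membrane partners, 6 were lower in non-classical monocytes, among them Anxa1 (-1.58 log2) and Anxa2 (-1.21 log2). Of the 767 cells of the non-classical gate, 434 fell into the non-classical monocyte cluster and 299 into classical monocyte clusters. The part of these 299 cells in the contrast was not tested.

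Classical monocytes were also divided by UMIs of Arg1, the gene of arginase 1, a mark of suppressive myeloid cells in tumours. S100a8 was lower in Arg1-positive than in Arg1-negative classical monocytes, with -1.92 ± 0.46 log2 (adjusted p = 0.00539), where 4.12% of 10185 genes passed as lower. This call was lost without cKO replicate 2 (adjusted p = 0.129) and under DESeq2 (0.317). S100a9 had a log2 difference of -2.61 ± 0.92 that did not pass (adjusted p = 0.0809), and the 5 other members did not pass either, with differences between -0.23 and 0.05 log2.

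The 2 conventional dendritic cell types differed in 3 members. S100a4 was higher in cDC2 than in cDC1 by 2.99 ± 0.29 log2 (adjusted p = 1.50e-11), S100a6 by 2.08 ± 0.29 (adjusted p = 1.31e-07) and S100a10 by 1.91 ± 0.21 (adjusted p = 7.42e-10), where 19.8% of all genes passed as higher. S100a11, with 0.29 ± 0.15 log2 (adjusted p = 0.133), and S100a13, with 0.15 ± 0.12 log2 (adjusted p = 0.397), did not pass. In the regulator list 5 of 6 measured genes were higher in cDC2, among them Cebpb (1.92 log2), Cebpd (1.49 log2), Cebpa (1.47 log2) and Klf4 (1.45 log2), while of the annexin and membrane partners 1 (Ahnak, 1.04 log2) was higher and 2 were lower. Migratory DC had less of S100a10 than cDC2, with -2.54 ± 0.23 log2 (adjusted p = 5.82e-13), and less of S100a6, with -1.36 ± 0.28 log2 (adjusted p = 8.34e-05), where 27.7% of all genes passed as lower. The smaller differences of S100a4 (-0.67 ± 0.26 log2, adjusted p = 0.0271) and S100a11 (-0.35 ± 0.15 log2, adjusted p = 0.0443) passed. Both were lost under DESeq2 (0.127 and 0.184), with DESeq2-type size factors in edgeR (0.0602 and 0.153) and without either WT library (0.111 to 0.445). The S100a4 call was also lost without cKO replicate 1 (0.0549) and with doublets kept (0.0666), and the S100a11 call without cKO replicate 2 (0.0888). In migratory DC, Anxa1 (-3.25 log2), Ahnak (-2.44 log2) and 5 of 6 regulators, led by Cebpd (-3.26 log2) and Cebpb (-3.02 log2), were lower than in cDC2.

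Among lymphoid types S100a4 differed most. NK cells had less S100a4 than CD8 T cells, with -2.34 ± 0.26 log2 (adjusted p = 3.99e-10), and less S100a6, with -0.83 ± 0.28 log2 (adjusted p = 0.0179), where 16.0% of all genes passed as lower; the S100a6 call was lost without WT replicate 1 (0.0981) or WT replicate 2 (0.0845). S100a10, S100a11 and S100a13 did not pass between NK and CD8 T cells, with log2 differences between -0.03 and 0.09. Anxa1 was 3.02 log2 higher and S100a1 2.27 log2 higher in NK cells. B cells had less of all 5 broadly detected members, averaged over the libraries, than the mean of CD8 and conventional CD4 T cells, in a contrast where 26.0% of all genes passed as lower: S100a4 differed by -3.12 ± 0.31 log2 (adjusted p = 6.77e-12) and S100a13 by -1.78 ± 0.12 (adjusted p = 4.73e-17), S100a6 by -1.09 ± 0.26 (adjusted p = 0.000423), S100a10 by -0.98 ± 0.18 (adjusted p = 1.39e-05) and S100a11 by -0.50 ± 0.13 (adjusted p = 0.00167). For S100a6 cKO library 2 went the other way, with 1571 CPM in B cells, against 1200 CPM in CD8 T cells and 1171 CPM in conventional CD4 T cells. Gamma-delta T cells had more S100a6 than conventional CD4 T cells, by 1.02 ± 0.28 log2 (adjusted p = 0.0120), where 5.57% of all genes passed as higher; without WT replicate 1 its adjusted p was 0.0937 and without WT replicate 2 it was 0.152. Between Treg and conventional CD4 T cells, where 14.3% of all genes passed, no member did by edgeR. The nearest were S100a13 (-0.33 ± 0.12 log2, adjusted p = 0.0622), which passed under DESeq2 (0.0391), and S100a10 (0.46 ± 0.20 log2, adjusted p = 0.132), and both had an unadjusted p under 0.05.

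S100a8 and S100a9 UMIs sat in very few cells. Of 30279 cells, 1349 had any UMI of either gene, and 107 cells with 20 or more held 89.2% of all 23772 UMIs of the pair. Of these 107 cells, 47 were in the neutrophil gate, 21 in classical monocytes, 1 in non-classical monocytes, 2 in macrophages and 36 in no gate. By clusters made without the S100 genes, 71 of the 107 fell into 1 cluster of 93 cells whose leading genes included Retnlg, Camp, Ngp and G0s2, genes of neutrophils and their precursors. In the 55 cells of the neutrophil gate the pair had a median of 112 UMIs per cell and at most 991, with 3 cells at 0. Raw S100a8 in this gate stood at 17676 and 26002 CPM in cKO and at 4979 and 24606 CPM in WT. Raw S100a9 stood at 21438 and 57425 CPM in cKO and at 8130 and 46460 CPM in WT. WT library 1 was lowest for both genes, and the ranges of cKO and WT overlapped. The ratio of S100a9 to S100a8 UMIs was 1.94 in the neutrophil gate and 0.348 in classical monocytes.

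Raw S100a8 in the cells of no gate stood at 14.3 and 149 CPM in cKO and at 8.39 and 21.4 CPM in WT. Among the gated types other than neutrophils, S100a8 was highest in classical monocytes. Their raw S100a8 stood at 12.1 and 69.9 CPM in cKO and at 8.34 and 73.5 CPM in WT, and their S100a9 at 9.45 and 17.4 CPM in cKO and at 1.19 and 31.2 CPM in WT. Libraries numbered 2 were thus higher than libraries numbered 1 in both genotypes. Cells with S100a8 numbered 32 of 795 and 193 of 1062 in cKO and 38 of 841 and 107 of 1023 in WT. When the 21 monocytes with 20 or more UMIs of the pair were left out, S100a8 stood at 5.76 and 35.1 CPM in cKO and at 8.34 and 31.9 CPM in WT, and S100a9 at 0 and 7.75 CPM in cKO and at 1.19 and 1.26 CPM in WT. After thinning, S100a8 was found in 4.99% of classical monocytes, against 0.791% of gamma-delta T cells, over all libraries. Without thinning, the gamma-delta T cells with S100a8 were 3 of 73 in cKO library 2 and 0 in each other library. The part of free RNA in these S100a8 shares was not tested. S100a9 was found in 0.255% and 2.61% of classical monocytes in cKO and in 0.121% and 1.10% in WT, against 0% and 4.23% of gamma-delta T cells in cKO and 0% in both WT libraries. Its share of B cells was 0% and 3.49% in cKO and 0% in both WT libraries. In cKO library 2 the S100a9 share of monocytes was thus below those of gamma-delta T and B cells, and in the other libraries it was above them on few cells; the part of free RNA in it was not tested. Of 17 thinned neutrophils, 82.4% had S100a8 and 88.2% had S100a9. Non-classical monocytes had S100a9 at 0 and 25.1 TMM-normalised CPM in cKO and at 0 and 44.2 CPM in WT, but the WT value stood for 75 UMIs in 2 of 337 cells, 1 of which held 20 or more UMIs of the pair.

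cKO library 2 held most UMIs of the pair. Over all kept cells S100a8 stood at 9.68 and 86.9 CPM in cKO and at 7.75 and 41.3 CPM in WT, and S100a9 at 11.7 and 128 CPM in cKO and at 8.42 and 56.2 CPM in WT. In that library 6 cells with 20 or more UMIs of the granule genes Ngp and Camp, which neutrophil precursors express, had between 1 and 2389 UMIs of the pair each and held 47.3% of its S100a8 and S100a9 UMIs; no other library had such a cell. The summed level of the pair in the 6 lymphoid types was 9.15 to 23.5 CPM in cKO library 2, against 0 to 4.52 CPM in the other 3 libraries. Without the cells of 20 or more UMIs, the library-wide S100a8 was 2.11 and 14.8 CPM in cKO and 2.46 and 8.63 CPM in WT.

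**Figure D2:**
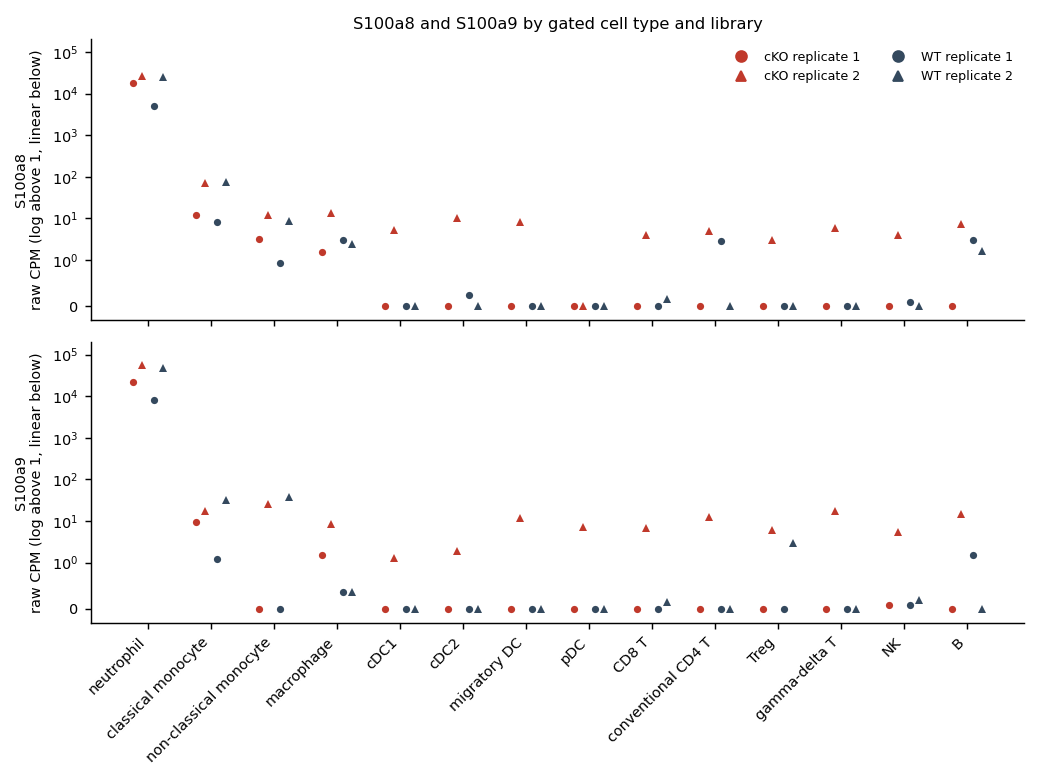
Raw CPM of S100a8 and S100a9 by gated cell type and library, 1 point per library, with cKO beside WT (axis logarithmic above 1 CPM and linear below). Neutrophils lie at 4979 to 57425 CPM, classical monocytes at 1.19 to 73.5 CPM, and in the lymphoid types the highest points belong to cKO library 2.

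The members formed a graded order over 9 clusters that were made without the S100 genes and that carried monocyte or macrophage markers. This view was added after the levels had been seen, it carries no test, and clusters are named by their leading genes. Cluster 2, led by F13a1 and Mgst1 (1563 cells), averaged 3494 CPM of S100a6, 1621 CPM of S100a10, 1988 CPM of S100a11 and 684 CPM of S100a4. Cluster 3, led by Arg1 and Ccl24, averaged 2788 CPM of S100a6, and cluster 0, led by the interferon-induced genes Ifit1bl1 and Ly6i, 2142 CPM. The low end was made up of cluster 11, led by Mmp12 and Pmp22, with 179 CPM of S100a6 and 18.4 CPM of S100a4, cluster 7, led by the mitotic genes Ube2c and Ccnb1, with 178 and 23.9 CPM, and cluster 12, led by the haemoglobin genes Hba-a1 and Hbb-bs, with 265 and 28.1 CPM. S100a13 was lowest in another cluster, with 23.3 CPM in cluster 9, led by Pde7b and Vcan, and 216 CPM in cluster 2. The cluster 9 value rests on 20 and 10 UMIs in cKO, in 154 and 433 cells. In WT it rests on 21 and 9 UMIs, in 326 and 224 cells. The part of cell depth or quality in this low value was not tested.

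**Figure D3:**
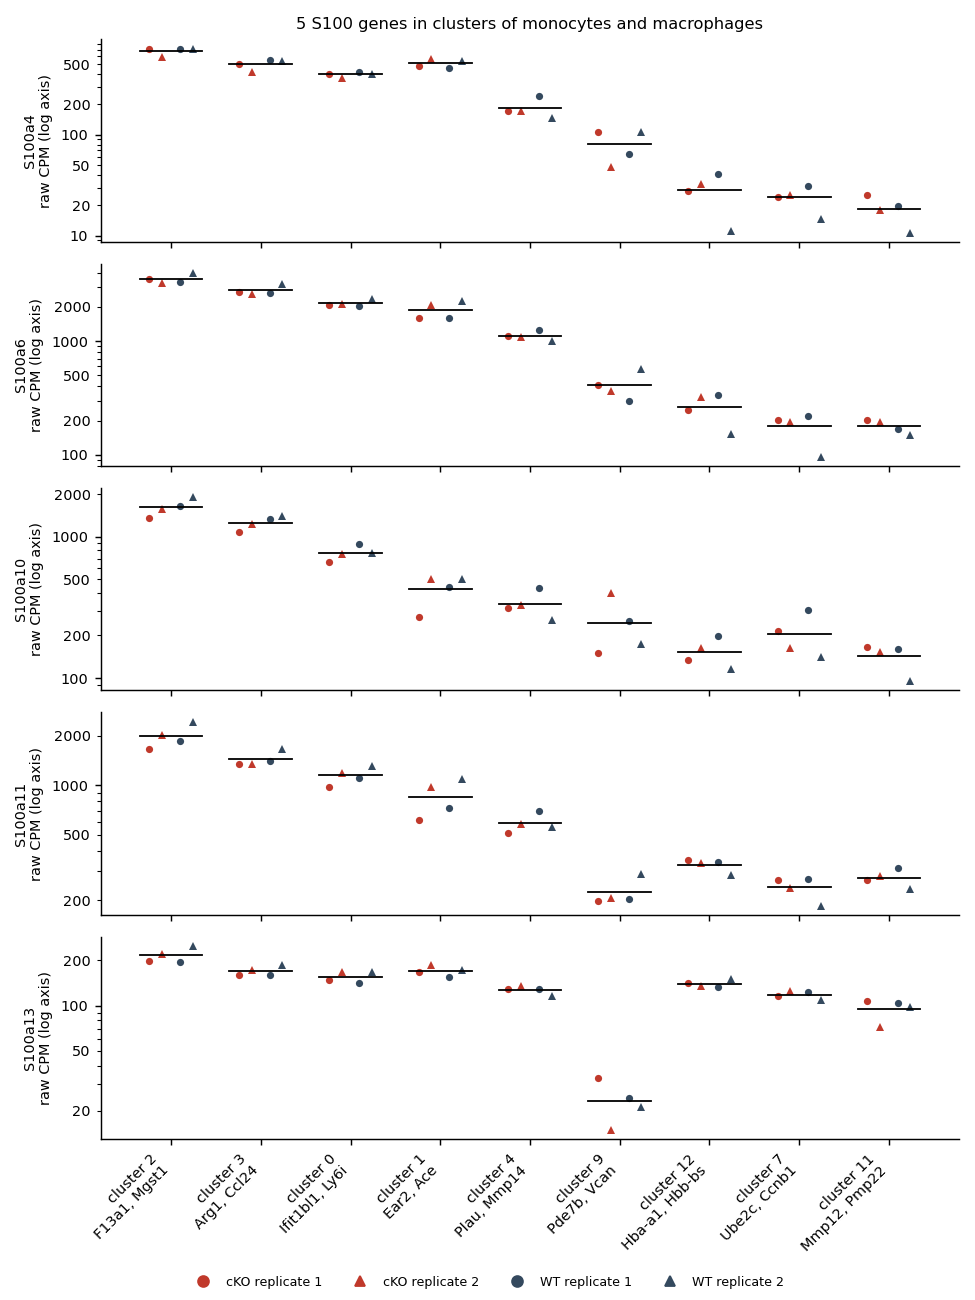
Raw CPM (log axis) of the 5 broadly detected members in 9 monocyte and macrophage clusters, 1 point per library with a line at the mean, named by cluster number and leading genes. S100a6 averages 3494 CPM in cluster 2 and 179 CPM in cluster 11.

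S100a6 in B cells was uneven between libraries. Raw S100a6 stood at 155 and 1513 CPM in cKO and at 313 and 451 CPM in WT, so that cKO library 2 was high and cKO library 1 was the lowest. B cells with 5 or more UMIs of S100a6 numbered 8 of 242 and 77 of 336 in cKO and 9 of 170 and 9 of 168 in WT. In cKO library 2 those 77 cells had a median of 9893 UMIs, against 3366 in its other B cells, and they were higher in Lyz2 (1319 CPM, against 77.9 CPM), Vim (4122 CPM, against 739 CPM), Zbtb32 (152 CPM, against 12.3 CPM) and Anxa2 (488 CPM, against 40.0 CPM). Such cells of the other libraries were likewise deeper and higher in Lyz2, Vim and Anxa2 than the remaining B cells. Their Lyz2 was 1964 CPM, against 56.5 CPM, in cKO library 1. In the WT libraries it was 1214 and 747 CPM, against 182 and 101 CPM. Zbtb32 was higher in them in both WT libraries but not in cKO library 1. Of the 77 cells of cKO library 2, 8 held 3 or more UMIs of Lyz2. Lyz2 is a gene of macrophages and other phagocytes, and its part in the S100a6 of these cells was not tested. B cells with 2 or more UMIs of Ighv11-2 and Ighv12-3 together, antibody genes used by B-1 cells, numbered 4 and 18 in cKO and 0 and 1 in WT. In cKO library 2 these 18 cells had 3808 CPM of S100a6, against 1304 CPM in its B cells without any UMI of these antibody genes. Of the 18 cells, 14 had 5 or more UMIs of S100a6.

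The genes most like each member over 15 gated types were found by Pearson's r of log2(CPM + 1) among 5502 genes with at least 50 CPM in some type; the 15 points share libraries and scaling, and r is given as a description. S100a8 was most like S100a9 (r = 0.967), Ubap1 (0.955) and the long noncoding RNA gene Mirt2 (0.942), and S100a9 was most like S100a8, the cytokine gene Il1f9 (0.961) and Ubap1 (0.954). S100a4 was most like Rarg (0.860), Hspa1a (0.830) and Smpdl3a (0.821), and S100a6 was most like the interferon-induced genes Xaf1 (0.892) and Dtx3l (0.875) and Casp8 (0.866). S100a10 was most like Wls (0.866), Impdh1 (0.853) and Kcnab2 (0.851), S100a11 was most like Antxr2 (0.835), Dhrs9 (0.833) and Isg15 (0.825), and S100a13 was most like the T cell kinase gene Prkch (0.910), Erap1 (0.900) and Cdk6 (0.878). Among the members themselves S100a4 and S100a6 had r = 0.776, S100a10 and S100a13 had r = 0.616, and S100a9 and S100a10 had r = -0.38. S100a8 and S100a11 had r = 0.774, a value that includes the neutrophil gate, where both were high.

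cKO was compared with WT within each of the 13 cell types by edgeR's quasi-likelihood test with Benjamini-Hochberg adjustment over all genes of that type. Of 70 tests of a member, 34 log2 fold changes were positive and 36 negative, and none passed an adjusted p of 0.05; the smallest was 0.892. DESeq2 likewise called no member. Of all genes, 0% passed in 10 of the 13 types, 0.163% in conventional CD4 T cells, 0.0173% in gamma-delta T cells and 0.00942% in NK cells. At an unadjusted p under 0.05 stood 4 of the 70 member tests, or 5.71%, against 2.12% to 5.69% of all genes by type. By type that share of all genes was 2.41% in B cells, 2.15% in CD8 T cells, 2.12% in Treg, 2.30% in gamma-delta T cells, 3.74% in cDC1, 3.61% in cDC2, 5.21% in pDC, 2.84% in non-classical monocytes and 5.69% in classical monocytes, and it is given for the other 4 types below. The 65 tests of the 5 broadly detected members gave log2 fold changes between -0.44 and 1.19, and between -0.44 and 0.58 outside B cells. All 5 were negative in classical monocytes, where the median of all 7 members was -0.18 log2, against -0.01 log2 over all genes, and all 5 were positive in Treg, cDC1 and B cells; none of these passed.

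The 4 member tests with an unadjusted p under 0.05 were as follows. S100a10 in conventional CD4 T cells stood at 841 and 976 CPM in cKO, against 1231 and 1080 CPM in WT, a log2 fold change of -0.37 ± 0.15 (unadjusted p = 0.0317, edgeR adjusted p = 0.893), and 5.01% of all genes reached that level in these cells. With clusters in place of gates this fold change was 0.023 log2. Both cKO libraries lay below both WT libraries. S100a11 in NK cells stood at 616 and 601 CPM in cKO, against 686 and 844 CPM in WT, a log2 fold change of -0.32 ± 0.14 (unadjusted p = 0.0449, edgeR adjusted p = 0.998), where 3.88% of all genes reached that level. Here too both cKO libraries were below both WT libraries. S100a6 in migratory DC stood at 1528 and 1417 CPM in cKO, against 1053 and 909 CPM in WT, with 0.58 ± 0.24 log2 (unadjusted p = 0.0406, edgeR adjusted p = 1.00), where 3.04% of all genes reached that level. S100a9 in macrophages stood at 1.75 and 9.56 CPM in cKO, against 0.412 and 0.424 CPM in WT, with 3.70 ± 0.89 log2 (unadjusted p = 0.00409, edgeR adjusted p = 1.00), where 2.37% reached it. With clusters in place of gates the S100a9 fold change was -0.65 log2. For both genes the cKO libraries lay above both WT libraries. Over the 13 types, cKO and WT overlapped in 8 for S100a10, 10 for S100a11, 11 for S100a6 and 12 for S100a9. The share of all genes without overlap was not counted. A lack of overlap is therefore not read as a result, here or in Treg below. The high S100a9 value was that of cKO library 2, which also had the highest S100a9 level in all 6 lymphoid types, and the part of free RNA in it was not tested.

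In the T cells in which the title places the ablation, CD8 T cells had log2 fold changes of 0.11 ± 0.19 for S100a4, -0.25 ± 0.22 for S100a6, -0.14 ± 0.20 for S100a10, -0.10 ± 0.17 for S100a11 and -0.00 ± 0.15 for S100a13 (SE, edgeR adjusted p = 1.00 for each). Treg had 0.48 ± 0.24 log2 for S100a6, with 1636 and 1639 CPM in cKO, against 980 and 1381 CPM in WT, both cKO libraries being above both WT libraries (unadjusted p = 0.0742, edgeR adjusted p = 0.998). In B cells S100a6 had the greatest positive fold change of the 5 broadly detected members, 1.19 ± 0.82 log2 (unadjusted p = 0.184, edgeR adjusted p = 1.00), and its 2 cKO libraries stood on either side of both WT libraries. Leaving out cKO replicate 1 turned this into an adjusted p under 0.05 with a log2 fold change of 2.04, and leaving out cKO replicate 2 did so with -1.29, so the direction rested on 1 library. No gene of the 6 related lists, which hold receptors, annexins, cytosolic partners, NADPH oxidase subunits, regulators and other S100 genes, passed between cKO and WT in any type by edgeR.

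**Figure D4:**
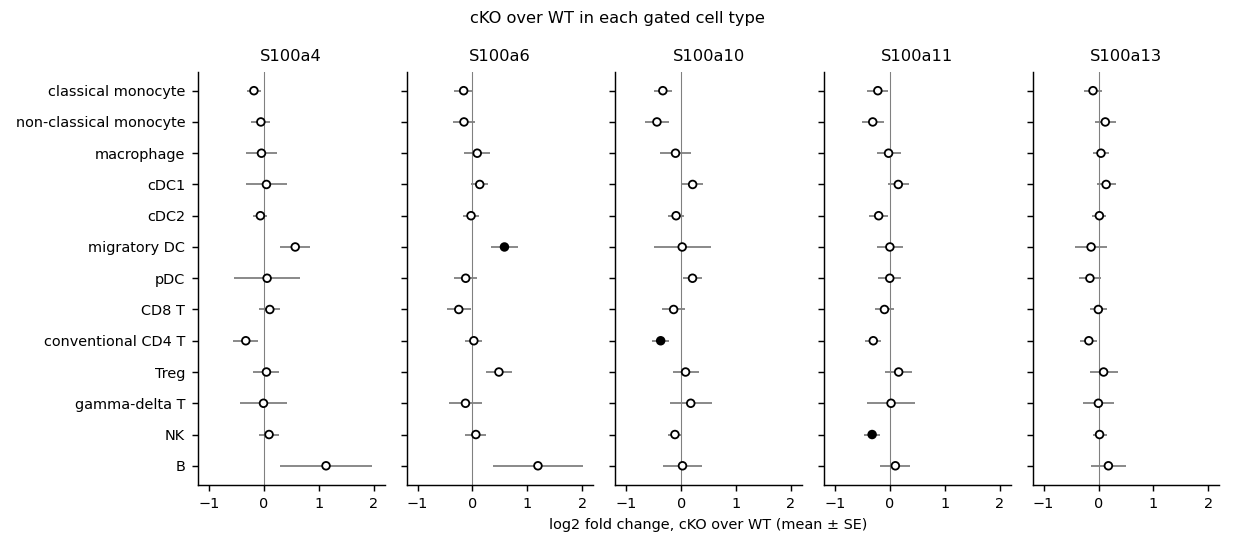
Log2 fold change of cKO over WT with its SE for the 5 broadly detected members in 13 cell types, with filled points where the unadjusted p was under 0.05; no point passed an adjusted p of 0.05. Outside B cells the 5 broadly detected members lie between -0.44 and 0.58.

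The difference of the cKO effect between paired types was tested as an interaction term in edgeR, and no member passed. For S100a9 the effect in classical monocytes minus that in macrophages was -4.00 ± 0.87 log2 (unadjusted p = 0.00123, edgeR adjusted p = 1.00), where 0% of all genes passed. Between conventional CD4 T cells and Treg, where 0.0131% of all genes passed, S100a6 differed by -0.47, S100a10 by -0.46 and S100a11 by -0.45 log2, and none passed (edgeR adjusted p = 1.00 for each). Between CD8 T and NK cells 0% of all genes passed.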

How the data were processed

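Droplet single-cell RNA-seq was measured in 4 libraries of sorted CD45+ cells. The authors deposited UMI counts per gene and barcode as filtered matrices, 1 per library and not normalised, made with Cell Ranger 6.1.1 per the file headers; CASAVA 1.8 and Seurat are named in the submitters' processing notes. The genome build of the alignment is not given in the sources used here. The 7 members, the related gene lists and the tests were chosen with earlier results of these data known.

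Barcodes passed the filter when they held 300 genes or more and no more than 15% mitochondrial UMIs. Scrublet marked no doublets at its automatic threshold, so the highest-scored cells were removed, at a rate that grew with the barcodes of a library (2117 of 32801 barcodes, besides 405 that failed the filters). Cell types were gated by marker UMIs, and 9469 cells stayed outside every gate. The neutrophil markers were set after S100a8 and S100a9 counts per cell had been looked at, and 2 neutrophil markers that monocytes also express, Mmp8 and Csf3r, were left out. Leiden clusters (scanpy 1.11.5, leidenalg 0.10.2, resolution 1, 2000 variable genes without S100 genes, 30 components, 20 neighbours) served as an alternative. UMIs were summed per library and type where every library had at least 20 cells, giving 13 types, and tested with edgeR 4.0.16 (quasi-likelihood test, TMM, filterByExpr, Benjamini-Hochberg over all genes, R 4.3.3), after tests on simulated data; the SE is the log2 fold change divided by the root of F. DESeq2 1.42.0 was an alternative. cKO was set against WT without the replicate number as a block. With 2 libraries against 2, an exact permutation test of a single value cannot give a p under 0.333, so none was run. Shares of cells used cells thinned to 3000 UMIs. Free RNA was not subtracted.

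All 7 members are named, and for likeness the 3 genes with the highest r. Of each related list, up to 4 genes past the threshold were named by size, and Anxa5 was added as the only annexin lower in classical monocytes. Promoter windows and gene models came from RefSeq and GENCODE tables of GRCm38. UMIs remove PCR duplicates, and intervals were computed for counting error only at 95% confidence. Some genes of the related lists are not reported here.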

Additional observations from a re-analysis of the deposited data

Results flagged for a closer look

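Cells outside every gate, which enter none of the tests between cell types or between cKO and WT, held 4416 UMIs of S100a8 and 6436 UMIs of S100a9. They include 36 of the 107 cells with 20 or more UMIs of the pair, and the ratio of S100a9 to S100a8 UMIs among them was 1.46, against 1.94 in the neutrophil gate and 0.348 in classical monocytes. The groups of 2 libraries are too small for a test of single outlying libraries.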

How the results depend on the processing

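Of the comparisons of a member between cell types under the alternatives, 442 kept direction and side of the threshold, 21 lost significance, 6 gained it and 15 changed sign. The sign changes were those of small differences: S100a10 between NK and CD8 T cells gave 0.034 (no filter on low counts), 0.0069 (doublets kept) and -0.11 to 0.073 with a library left out, and S100a13 there gave 0.0054 (no filter) and 0.024 (doublets kept). In gamma-delta against conventional CD4 T cells, leaving out each library gave -0.29 to 0.31 for S100a4, -0.11 to 0.30 for S100a10 and -0.20 to 0.28 for S100a11. In Arg1-positive against Arg1-negative monocytes, S100a6 gave 0.013 (DESeq2), 0.013 (relative log expression, RLE) and -0.060 to 0.037 with a library left out, S100a10 gave -0.050 (no filter) and S100a13 -0.089 to 0.075 with a library left out. Between cKO and WT, S100a10 in CD4 T cells gave 0.023 and S100a9 in macrophages -0.65 with cluster classes. With no filter S100a4 passed between non-classical and classical monocytes (0.00414), and S100a13 passed between migratory DC and cDC2 under DESeq2 (0.0215) and RLE (0.0415).

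Between cKO and WT, no member was called by edgeR, and 7 were with no filter on low counts (S100a6 in B cells, S100a8 in macrophages, cDC2 and NK cells, S100a9 in macrophages, CD8 T and NK cells). Without cKO replicate 1, when cKO library 2 stood alone, S100a6 in B cells had a log2 fold change of 2.04. Without cKO replicate 2 it had -1.29. The numbers of genes tested with no filter or with a library left out are not given here. Member calls under these alternatives therefore cannot be set against a share of all genes and are not read as results about the members. Genes called under DESeq2 numbered 3 in B cells, 1 in CD8 T cells, 1 in cDC2, 4 in classical monocytes, 5 in gamma-delta T cells, 5 in NK cells, 1 in pDC and 2 for the CD8 T minus NK difference; RLE gave 2 in gamma-delta T cells. With no filter they numbered 118 in B, 144 in CD8 T, 36 in cDC1, 36 in cDC2, 168 in classical monocytes, 139 in CD4 T, 0 in gamma-delta T, 80 in macrophages, 31 in migratory DC, 63 in NK, 12 in non-classical monocytes, 46 in pDC and 110 in Treg, and for the differences of the cKO effect 28 (monocyte minus macrophage), 101 (CD8 T minus NK) and 22 (CD4 T minus Treg), with 2 members called.

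Replicate numbers are shared by the labels. Within each type, the log CPM difference of cKO libraries 1 and 2 was correlated over genes with that of WT libraries 1 and 2. This correlation lay between -0.196 and 0.213 over the types, and with only 2 pairs the numbers were not taken to pair the libraries. Same-numbered libraries were nonetheless alike in some shares of cells, with NK cells at 16.1% (cKO 1), 8.43% (cKO 2), 19.2% (WT 1) and 5.98% (WT 2). The replicate block gave 6 genes in cDC2, 31 in classical monocytes, 0 in gamma-delta T cells and 26 in pDC, and the crossed pairing, tried in macrophages after the data had been seen, gave 116. Cluster classes gave 1 in classical monocytes, 0 in CD4 T, 0 in gamma-delta T, 2 in migratory DC, 0 in NK and 3 in Treg. With doublets kept the counts were 21 in CD4 T, 0 in gamma-delta T, 0 in NK and 1 in pDC. Without shared barcodes, added after the data had been seen, they were 8 in CD4 T, 0 in NK, 1 for monocyte minus macrophage and 1 for CD8 T minus NK. With clusters in place of gates 29 of 91 levels moved by more than the spread between libraries. On raw CPM, also added later, 3 members were highest in classical monocytes instead of 5.

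Leaving out each library in turn gave 1 to 154 genes in B cells, 1 to 19 in CD8 T, 0 to 27 in cDC1, 0 to 48 in cDC2, 0 to 148 in classical monocytes, 21 to 70 in CD4 T, 0 to 130 in gamma-delta T, 0 to 32 in macrophages, 0 to 65 in migratory DC, 0 to 48 in NK, 8 to 15 in non-classical monocytes, 14 to 101 in pDC and 0 to 162 in Treg. For the differences of the cKO effect it gave 0 to 2 members and 0 to 79 (monocyte minus macrophage), 0 to 23 (CD8 T minus NK) and 1 to 59 (CD4 T minus Treg) genes. Between types it gave 28 to 32 member calls, and 7044 to 7239 genes (myeloid minus lymphoid), 3537 to 4458 (monocyte minus macrophage), 1820 to 2181 (non-classical minus classical), 2669 to 3050 (cDC2 minus cDC1), 4315 to 4403 (migratory DC minus cDC2), 995 to 1206 (Treg minus CD4 T), 2277 to 2739 (NK minus CD8 T), 589 to 849 (gamma-delta minus CD4 T), 4396 to 4680 (B minus T) and 282 to 353 (Arg1). A lone library in an arm is assumed to vary like the others. The cause of these changes was not tested.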

Other observations

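The 91 cells of the mast cell and basophil gate, too few per library for a test, had raw S100a11 of 1077 and 858 CPM in cKO and of 1127 and 1259 CPM in WT, and raw S100a10 of 837 and 846 CPM in cKO and of 853 and 985 CPM in WT. Their S100a6 was uneven, with 357 and 0 CPM in cKO and 48.3 and 468 CPM in WT, so that cKO and WT overlapped. With 11 to 34 such cells per library, no difference between cKO and WT is read from any of these values. S100a1, the only other S100 gene with more than 64 UMIs, differed between cell types as well: it was higher in the myeloid than in the lymphoid mean by 1.30 ± 0.13 log2 (edgeR adjusted p = 8.49e-13), in NK than in CD8 T cells by 2.27 ± 0.15 log2 (edgeR adjusted p = 1.28e-16), in gamma-delta than in conventional CD4 T cells by 1.63 ± 0.39 log2 (edgeR adjusted p = 0.00303) and in migratory DC than in cDC2 by 1.00 ± 0.24 log2 (edgeR adjusted p = 0.000481). It was lower in non-classical than in classical monocytes, with -0.59 ± 0.16 log2 (edgeR adjusted p = 0.00425), and did not pass in the 5 other contrasts.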
